A study of Mus musculus with 2 samples.

Results

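Cxcl1, Cxcl2 and Cxcl3, the mouse chemokines that draw neutrophils through the receptor CXCR2, were followed across the leukocytes of the aortic adventitia. The members were the rows of the deposited count matrices that carry these symbols, 3 of 55386 features, and the same 3 identifiers were present in both libraries. The genes were chosen by their measured levels in the cell classes, conditions and reporter groups of these libraries, so those levels are given as a description and carry no test. Single cells had been sorted as CD45-positive from the adventitia of RankCreRosa26eYFP mice about 16 weeks old (the extraction protocol names whole aortas) and sequenced as 2 droplet libraries that count unique molecular identifiers (UMIs, 1 per captured RNA molecule). The steady state library held cells of 3 untreated animals pooled together. The AngII library held cells of 2 animals, also pooled, that had received angiotensin II, a hormone that raises blood pressure, at 1.8 µg/kg/min for 10 days. All animals of both groups carried the Rank-Cre allele and the Rosa26 eYFP reporter, so a cell reads EYFP after Cre, driven by the Rank (Tnfrsf11a) locus, has acted in it or in a cell it came from. Each condition has a single library, so no replicate exists, and the animals within a library cannot be told apart. Levels are therefore given in CPM, a gene’s UMIs scaled to the total UMIs of the same cells, with exact 95% Poisson intervals, shares of cells with exact 95% binomial (Clopper-Pearson) intervals, and ratios of CPM with exact 95% conditional binomial intervals. The intervals reflect counting error and nothing else.

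After the cell filter 306 of 346 barcodes were left in the steady state library and 4198 of 4419 in the AngII library, and the libraries shared 0 barcodes. The libraries differed in depth. The median cell held 9105 UMIs at steady state and 1092 UMIs after AngII, and 1910 AngII cells had fewer than 1000 UMIs. Cells were named by a gate on summed marker genes whose scoring was settled after the data had been seen, and the class names are those of gates and not of clusters. Macrophages made up 137 steady state and 2306 AngII cells, and all 10 macrophage markers were detected in them, at a summed 28777 CPM against 2898 CPM in the other steady state cells and at 27931 against 4552 CPM after AngII. The neutrophil gate took 366 AngII cells, with all 11 of its markers detected at a summed 35491 CPM, but only 5 steady state cells. Barcodes that passed the gate of a second lineage, as a droplet with 2 cells would, numbered 69 and 458. They were kept, and values without them are given where they move a result.

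CXC chemokines with an ELR motif before their first cysteines are secreted by macrophages, neutrophils, endothelium and stroma, bind CXCR2 on neutrophils and guide them out of blood into tissue. In macrophages and neutrophils their genes belong to the early response to interleukin-1, tumour necrosis factor and Toll-like receptor ligands, through NF-κB, and their short-lived transcripts can also rise when tissue is digested into single cells. In mice Cxcl1 is also called KC and Cxcl2 MIP-2.

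The members lie on the forward strand of chromosome 5 (GRCm38) within 119836 bases of each other. Cxcl3 (ENSMUSG00000029379.10) spans chr5:90786103-90789600, Cxcl1 (ENSMUSG00000029380.11) chr5:90891241-90893115 and Cxcl2 (ENSMUSG00000058427.10) chr5:90903871-90905938. Cxcl1 and Cxcl2 are direct neighbours with 10755 bases between them, whereas Cxcl15 lies between Cxcl3 and Cxcl1, and Pf4, Ppbp and Cxcl5 lie before Cxcl3. The promoters of the members are printed because they share a pair of short sequences that few other promoters hold. They are 5′ to 3′ from the RefSeq promoter table (GRCm38.p6), forward strand, at chr5:90891155-90891227, chr5:90903783-90903858 and chr5:90786009-90786088, and capitals mark GGAATTTCC, a sequence of the NF-κB type, and ATAAAAG, a sequence of the TATA-box type.
Cxcl1: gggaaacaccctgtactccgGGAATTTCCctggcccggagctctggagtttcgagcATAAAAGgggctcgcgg
Cxcl2: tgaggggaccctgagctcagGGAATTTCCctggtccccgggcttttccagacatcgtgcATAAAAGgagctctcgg
Cxcl3: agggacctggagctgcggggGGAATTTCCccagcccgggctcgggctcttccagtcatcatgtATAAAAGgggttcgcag

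GGAATTTCC began 70 bases before the RefSeq start of Cxcl1, 96 before that of Cxcl2 and 72 before that of Cxcl3. The letters of both motifs were chosen after these promoters had been read, and a longer form of the first, with another G in front, also lies in the 3 members. Searched on both strands over the 250 bases before each start, GGAATTTCC was found in 94 of 32851 promoters (0.286%), ATAAAAG in 1588 (4.83%) and both in 8 (0.0244%), those of the 3 members and of Acot9, Gm38531, Il1rl2, Ntm and Olfr776. The motifs do not overlap in any member. The neighbours Pf4 and Cxcl15 held neither, and Ppbp held ATAAAAG on the reverse strand only. The matches are a description of letters and show no binding. The 3′ ends that the assay reads were distinct: of 410 stretches of 91 bases in the last 500 bases of each member's coding transcripts, 0 occurred in a transcript of another gene.

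Cxcl2 was found in many cells of both libraries, Cxcl1 in few, and Cxcl3 almost only after AngII. Cxcl2 had 2887 UMIs at steady state (791 CPM, 95% interval 763 to 821) in 80 cells (26.1%), and 20281 UMIs after AngII (1126 CPM, 1111 to 1142) in 1819 cells (43.3%). Cxcl1 had 257 UMIs at steady state (70.5 CPM, 62.1 to 79.6) in 24 cells (7.84%), and 527 UMIs after AngII (29.3 CPM, 26.8 to 31.9) in 132 cells (3.14%). Cxcl3 had 2 UMIs at steady state, both in 1 macrophage, and 1532 UMIs after AngII (85.1 CPM, 80.9 to 89.4) in 174 cells (4.14%).

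A small number of cells carried most of the signal. At steady state 4 cells were enough to hold 50% of the Cxcl1 UMIs and 11 cells to hold 50% of the Cxcl2 UMIs. After AngII the number was 10 cells for Cxcl1, 91 for Cxcl2 and 5 for Cxcl3. The highest Cxcl3 cell held 368 UMIs and the next 242, together 610 of the 1532 in the library, and both passed a second gate. The medians in positive cells were far lower, at 1 UMI for Cxcl1, 2 for Cxcl2 and 2 for Cxcl3 after AngII. A level summed over a class can therefore rest on 1 cell, and the level without the highest cell is given where that is so.

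**Figure D1:**
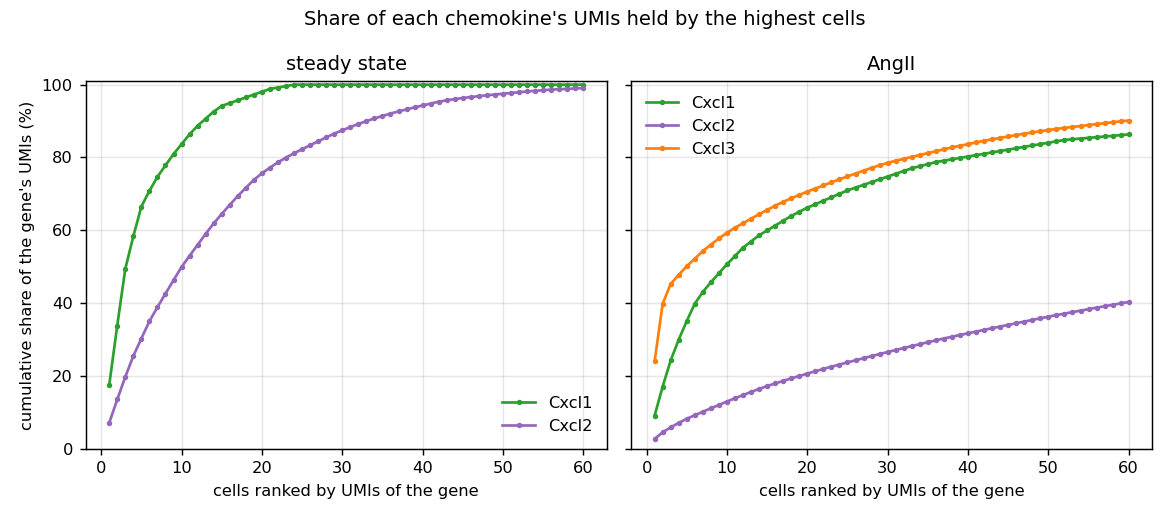
Cumulative share of the UMIs of each gene (y axis, percent) held by the cells with the most UMIs of it (x axis, rank of the cell), in the steady state library (left) and the AngII library (right). The Cxcl3 curve starts at 24.02% with its highest cell, while the 10 highest Cxcl2 cells of the AngII library held 12.98%. Cxcl3 is not drawn at steady state, where it had 2 UMIs.

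Neutrophils were the highest class for Cxcl2 after AngII. The 366 neutrophils held 6753 Cxcl2 UMIs, 33.3% of the library's from 8.72% of its cells, at 6100.4 CPM, and 293 of them (80.1%, 75.6 to 84.0) had a UMI. The 2306 macrophages held 10994 UMIs, 54.2% of the library's, at 1238 CPM, and 1141 (49.5%) had a UMI. Cxcl2 was thus 4.93-fold higher in neutrophils than in macrophages (95% interval 4.78 to 5.08). Without barcodes passing a second gate the ratio was 7.06, with 223 neutrophils left at 8449.8 CPM, and it was 7.49 with cells thinned to 2000 UMIs. Of the 3 members 1 was at least 2-fold higher in neutrophils, against 6.08% of the 7962 genes compared, and 0 were at least 2-fold lower, against 8.92%. Cxcl3 stood at 201 CPM in neutrophils and 139 CPM in macrophages (ratio 1.45, 1.25 to 1.67), and Cxcl1 at 37.9 and 40.0 CPM (ratio 0.949, 0.672 to 1.31). Without barcodes passing a second gate Cxcl3 was at 285 CPM in neutrophils and 83.3 CPM in macrophages. That difference is more than 2-fold, so the count of members above depends on these barcodes. Summed immediate early genes, which tissue digestion can raise, were also higher in neutrophils, at 21150.4 CPM against 11814 CPM in macrophages. Their part in the Cxcl2 difference was not tested.

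Below neutrophils, Cxcl2 stepped down through the macrophages. Macrophages with Arg1 and Spp1, genes of repair and matrix remodelling, were at 2563 CPM, Ear2/Retnla macrophages at 1080.2 CPM, resident macrophages with Lyve1 and Folr2 at 978 CPM, and the 1610 macrophages of no subclass at 976 CPM. Resident macrophages and those of no subclass did not differ beyond counting error (ratio 1.002, 0.948 to 1.06), while each class above them differed from the next. Without the highest cell of each class, Ear2/Retnla macrophages were at 899 CPM and resident macrophages at 917 CPM, so the order of this pair rests on single cells. Classical monocytes were at 500.3 CPM, which did not differ from the 455 CPM of B cells beyond counting error (ratio 1.10, 0.9501 to 1.28). Nonclassical monocytes were at 575 CPM, or 235.5 CPM without 1 cell that held 82 of their 131 UMIs. The 373 cells that passed no gate were at 626 CPM. Among dendritic cells the type-2 class had 355 CPM, the plasmacytoid 129 CPM, the type-1 97.5 CPM and the migratory 73.7 CPM. The 23 mast cells held 3 Cxcl2 UMIs. Lymphocytes, which are not a known source of the transcript, set the background. B cells showed Cxcl2 in 18.5% of cells at a median depth of 1662 UMIs, and T cells in 13.04% at 1117.5 UMIs, against 80.1% of neutrophils at 1414.5 UMIs and 49.5% of macrophages at 1052.5 UMIs. After each cell had been thinned to 1000 UMIs the shares were 15.9% of 82 B cells, 10.6% of 160 T cells, 83.1% of 236 neutrophils and 46.2% of 1224 macrophages. The thinning left out 130 neutrophils, 1082 macrophages, 53 B cells and 116 T cells. Type-1 dendritic cells, at 14.2% of 148 thinned cells, plasmacytoid dendritic cells, at 13.3% of 15, and migratory dendritic cells, at 10.0% of 30, lay below B cells. At full depth the shares were 26.1% of 203 type-1, 29.0% of 31 plasmacytoid and 16.1% of 56 migratory dendritic cells, against 18.5% of B cells. Migratory dendritic cells lay below B cells both ways and are read as background. Type-1 and plasmacytoid dendritic cells lay above B cells at full depth and below them when thinned, so no order is read from these shares. The thinned share of nonclassical monocytes, 12.5% of 24, also lay below B cells although their CPM was higher, so no order is read from it.

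The lymphocyte levels rested on single barcodes. In T cells 189 of 243 Cxcl2 UMIs were in 1 barcode that also passed a second gate, and without such barcodes the level went from 188 to 45.9 CPM. In B cells 107 of 237 were in 1 such barcode, and without them the level went from 455 to 242 CPM. Type-2 innate lymphoid cells were different: 21 cells held 224 Cxcl2 UMIs at 1442 CPM, 8 of them with a UMI, and the level was 1925 CPM in the 17 cells without a second gate. Of these 224 UMIs 83 were in 1 cell and 45 in the next, and without the highest cell the level was 967 CPM. At steady state the 9 type-2 innate lymphoid cells held 0 Cxcl2 UMIs, which allows up to 43.1 CPM.

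At steady state macrophages held 2176 of 2887 Cxcl2 UMIs (75.4%) at 1173 CPM, and 65 of 137 (47.4%) had a UMI. B cells and T cells had Cxcl2 in 1 cell each, of 49 and 39, at median depths of 5573 and 8307 UMIs against 10720 in macrophages. Thinned to 1000 UMIs, 25.2% of 135 macrophages and 0% of 48 B cells had a UMI. The 14 nonclassical monocytes held 332 UMIs at 2347 CPM, with 186 of them in 1 cell, and the 12 classical monocytes held 0, which allows up to 16.8 CPM. Classical monocytes of the AngII library were at 500.3 CPM, and at 364 CPM without barcodes passing a second gate, against 242 CPM in B cells so treated. The 5 steady state neutrophils held 209 UMIs, of which 205 were in 1 barcode that passed a second gate, so no level is read from them.

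**Figure D2:**
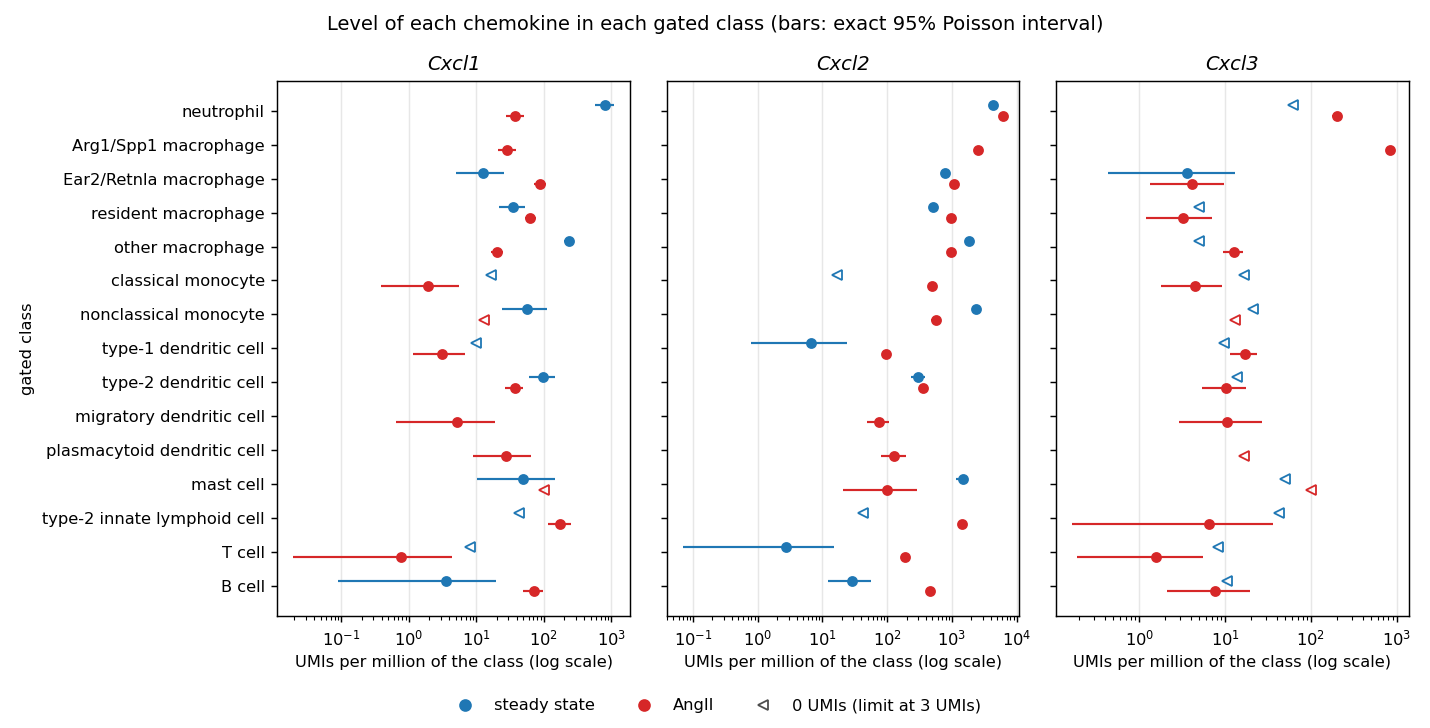
Level of each gene in CPM (x axis, log scale) in gated classes (y axis; classes with fewer than 5 cells, natural killer cells and cells of no gate are not drawn), in the steady state library (blue) and the AngII library (red), with exact 95% Poisson intervals. Open triangles mark classes with 0 UMIs at the level that 3 UMIs would give. Cxcl2 after AngII runs from 6100.4 in neutrophils to 73.7 in migratory dendritic cells, and Cxcl3 stands apart in Arg1/Spp1 macrophages (845) and neutrophils (201).

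Cxcl3 was found mainly in Arg1/Spp1 macrophages and neutrophils. The 211 Arg1/Spp1 macrophages, 5.03% of the AngII cells, held 1169 of 1532 Cxcl3 UMIs (76.3%) at 845 CPM, and 56 of them (26.5%, 20.7 to 33.0) had a UMI. The 366 neutrophils held 223 UMIs (14.6%) at 201 CPM, and 55 (15.0%, 11.5 to 19.1) had a UMI. The remaining macrophages together stood at 8.94 CPM, so that Cxcl3 was 94.6-fold higher in Arg1/Spp1 macrophages (73.9 to 123). The order of this pair of classes was kept without the highest cell, at 593 CPM in Arg1/Spp1 macrophages and 178 CPM in neutrophils, and without barcodes passing a second gate, at 482 and 285 CPM. Taken as the mean of the CPM of single cells, the ratio of Arg1/Spp1 to the remaining macrophages was 52.9. Of the 3 members 2 were at least 2-fold higher in Arg1/Spp1 than in other macrophages, Cxcl3 and Cxcl2 (2.58-fold, 2.48 to 2.69), against 2.80% of 7615 genes. None was at least 2-fold lower, against 3.94%, and Cxcl1 was at 28.9 against 42.0 CPM (ratio 0.688, 0.482 to 0.958).

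In most other AngII classes the share of cells with Cxcl3 was at the level of the lymphocytes. B cells had it in 2.96% of cells (4 of 135), and resident macrophages in 0.820% (2 of 244), Ear2/Retnla macrophages in 2.07%, macrophages of no subclass in 1.86%, type-1 dendritic cells in 2.96%, classical monocytes in 2.33% and T cells in 0.725%. These shares were at or below that of B cells, and no expression is read from them. The median depth of B cells, 1662 UMIs, lay between the 937 of macrophages of no subclass and the 3803 of classical monocytes. Summed levels were 16.9 CPM in type-1 dendritic cells and 12.6 CPM in macrophages of no subclass, against 7.68 CPM in B cells and 1.55 CPM in T cells. The highest cell held 13 Cxcl3 UMIs in each of the first 2 classes and 12 in type-2 dendritic cells, against 1 in B cells. The shares therefore do not exclude Cxcl3 in single cells of these classes. Thinned to 1000 UMIs, 19.9% of 146 Arg1/Spp1 macrophages and 10.2% of 236 neutrophils had a Cxcl3 UMI, against 0 of 82 B cells (95% interval up to 4.40%). The thinned share was 1.75% of 114 type-2 dendritic cells, 1.35% of 148 type-1 dendritic cells, 1.34% of 149 classical monocytes, 1.07% of 747 macrophages of no subclass, 0.735% of 136 Ear2/Retnla macrophages and 0 of 195 resident macrophages. These shares lay above 0 in 5 of the 6 classes and within the interval of B cells, so at this depth they could not be told from it. Migratory dendritic cells had Cxcl3 in 3 of 56 cells (5.36%), 4 UMIs in all, and in 0 of 30 thinned cells. At steady state Cxcl3 had 0 UMIs in resident macrophages, which allows up to 4.93 CPM, and 0 in macrophages of no subclass, up to 4.92 CPM. The steady state library held 3 Arg1/Spp1 cells, also without Cxcl3, where 3 UMIs would have given 36.5 CPM.

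Cxcl1 had no class of its own after AngII. Macrophages held 355 of 527 UMIs (67.4%) at 40.0 CPM, and the subclasses ran from Ear2/Retnla macrophages (88.2 CPM) and resident macrophages (63.3 CPM) to Arg1/Spp1 macrophages (28.9 CPM) and those of no subclass (20.5 CPM). Neutrophils had 42 UMIs in 25 cells at 37.9 CPM with at most 5 in a cell. The 21 type-2 innate lymphoid cells ranked highest at 174 CPM, but all 27 UMIs were in 1 barcode, which passed a second gate. In type-2 dendritic cells 38 of 47 UMIs, and in B cells 30 of 37, were in 1 barcode. Without the highest cell resident macrophages were at 41.4 CPM, Ear2/Retnla macrophages at 50.2 CPM, neutrophils at 33.8 CPM and B cells at 13.8 CPM. The share of cells with a Cxcl1 UMI was 8.61% in resident macrophages, 6.83% in neutrophils, 6.16% in Arg1/Spp1 macrophages and 2.22% in B cells. Thinned to 1000 UMIs it was 2.05%, 4.24%, 2.74% and 2.44%, and the share of resident macrophages then lay below that of B cells, so it is not read as a difference.

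At steady state macrophages of no subclass held the most Cxcl1, 145 of 257 UMIs at 238 CPM in 10 of 55 cells. Resident macrophages were at 34.5 CPM (ratio 6.89, 4.34 to 11.5) and Ear2/Retnla macrophages at 12.6 CPM. The 3 highest macrophages held 45, 42 and 23 Cxcl1 UMIs together with 138, 166 and 89 Cxcl2 UMIs, and none of them passed a second gate. B cells had 1 Cxcl1 UMI, and T cells had 0, which allows up to 8.20 CPM.

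Between the conditions, macrophages taken as 1 class had less Cxcl1, about as much Cxcl2 and more Cxcl3 after AngII when read as summed CPM. Cxcl1 was at 93.3 CPM (79.9 to 108) at steady state and 40.0 CPM (35.9 to 44.4) after AngII, a ratio of 0.428 (0.356 to 0.517). Cxcl2 was at 1173 and 1238 CPM (ratio 1.05, 1.01 to 1.11), and the ratio lay on the other side of 1 under a stricter gate (0.922) and after thinning to 2000 UMIs (0.992). Cxcl3 was at 1.08 CPM, from 2 UMIs, and 139 CPM (ratio 129, 35.6 to 1067). The make-up of the class differed, since 3 of 137 steady state and 211 of 2306 AngII macrophages were in the Arg1/Spp1 gate, and that gate held 1169 of the 1236 Cxcl3 UMIs of AngII macrophages. Without barcodes passing a second gate the ratios were 0.279 for Cxcl1, 1.01 for Cxcl2 and 52.2 for Cxcl3. Of the 3 members 1 was at least 2-fold higher after AngII, against 6.0% of 8201 genes, and 1 at least 2-fold lower, against 4.67%. With 1 library per condition, the treatment, the animals and the depth cannot be told apart.

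The Cxcl1 and Cxcl2 differences did not have 1 direction in all macrophage subclasses. In resident macrophages Cxcl1 went from 34.5 to 63.3 CPM (ratio 1.83, 1.14 to 3.07) and Cxcl2 from 511 to 978 CPM (1.91, 1.69 to 2.16), and 0 of the 2 members with at least 100 UMIs were 2-fold higher, against 5.94% of 3923 genes, or 2-fold lower, against 4.0%. In Ear2/Retnla macrophages Cxcl1 went from 12.6 to 88.2 CPM (6.99, 3.28 to 17.8) and Cxcl2 from 777 to 1080.2 CPM (1.39, 1.25 to 1.55), and 1 of 2 members was 2-fold higher, against 4.03% of 2683 genes, with 0 lower, against 2.53%. In macrophages of no subclass Cxcl1 went from 238 to 20.5 CPM (0.0863, 0.0656 to 0.113) and Cxcl2 from 1868 to 976 CPM (0.522, 0.489 to 0.558), and 1 of 2 members was 2-fold lower, against 5.75% of 5931 genes, with 0 higher, against 7.84%. The summed CPM were thus higher after AngII in the resident and Ear2/Retnla gates and lower in the remainder. The background of lymphocytes differed as well. Cxcl2 went from 28.5 to 455 CPM in B cells and from 2.73 to 188 CPM in T cells. Without barcodes passing a second gate it went from 32.8 to 242 CPM and from 3.57 to 45.9 CPM. The part of this background in the macrophage ratios was not tested. Thinned to 1000 UMIs, the share of cells with Cxcl2 was 14.0% at steady state and 36.4% after AngII in resident macrophages. It was 27.3% and 59.6% in Ear2/Retnla macrophages, and 32.1% and 44.8% in macrophages of no subclass. In the last of these the Cxcl2 share went the other way from the CPM. Thinned in the same way, B cells went from 0 of 48 to 15.9% of 82, and T cells from 0 of 39 to 10.6% of 160. The part of this background in the macrophage shares was not tested. Subclasses were scored against the macrophages of each library by itself, and a deeper cell reaches the needed excess more easily. Median depths were 9541 and 3605 UMIs in the resident gate and 25479 and 1121 UMIs in the Ear2/Retnla gate. Whether any subclass held the same kind of cells in both libraries was not tested. The macrophages of no subclass are what the gates left over. They were 55 of 137 macrophages at steady state, at a median of 9264 UMIs. Their leading genes there included the cell cycle genes Stmn1 and Pclaf, and Cxcl1 and Cxcl2 themselves. After AngII they were 1610 of 2306, at 937 UMIs, with C1qb and Cx3cr1 among their leading genes. Ccl12 and Ms4a7 were among the leading genes in both libraries. In resident macrophages the share of cells with Cxcl1 was 8.77% at steady state and 8.61% after AngII, and 3.51% and 2.05% after thinning to 1000 UMIs, so no rise is read from the CPM alone. The steady state Ear2/Retnla gate held 22 cells with 7 Cxcl1 UMIs, 6 of them in 1 cell. Without barcodes passing a second gate the directions were kept, with Cxcl1 at 23.8 and 46.3 CPM in resident, 16.3 and 100.1 CPM in Ear2/Retnla and 296 and 16.6 CPM in the other macrophages. The difference between subclasses was not tested.

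The immediate early genes moved as well. Summed over 16 genes they stood at 20906 CPM in steady state macrophages and 11814 CPM in AngII macrophages, and 7 of the 16 were at least 2-fold lower after AngII, against 4.67% of all genes compared. In macrophages of no subclass the sums were 24860.5 and 11921 CPM, in resident macrophages 20416 and 13355 CPM. Their part in the chemokine levels was not tested. Neutrophil markers were present in macrophage barcodes of both libraries: 7 of 11 were detected at a summed 187 CPM at steady state and 10 of 11 at 608 CPM after AngII, with a UMI in 52.6% and 41.8% of macrophages, against 4.08% and 17.8% of B cells. Their part in the macrophage Cxcl2 level was not tested.

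**Figure D3:**
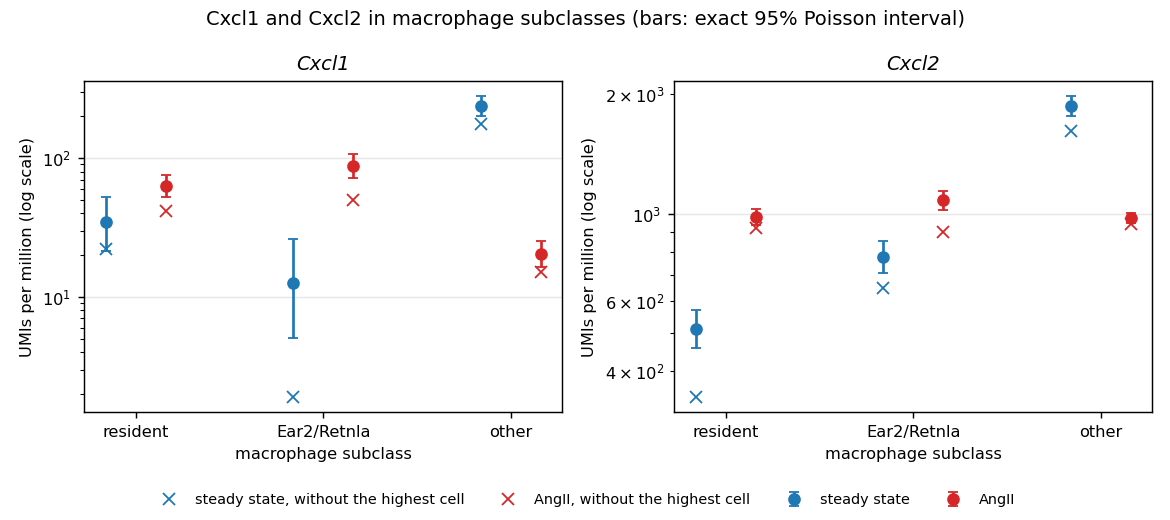
Level of Cxcl1 (left) and Cxcl2 (right) in CPM (y axis, log scale) in 3 macrophage subclasses (x axis), at steady state (blue) and after AngII (red), with exact 95% Poisson intervals. Crosses show the level without the cell that holds the most UMIs. Red lies above blue in the resident and Ear2/Retnla gates and below it in macrophages of no subclass.

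At full depth, macrophages with an EYFP UMI had a higher Cxcl1 level than those without in both libraries. An EYFP UMI was found in 71.5% of steady state macrophages, against 0 of 49 B cells and 3 of 39 T cells, and in 13.96% of AngII macrophages, against 2.96% of B cells, 2.90% of T cells and 4.37% of neutrophils. Thinned to 1000 UMIs the AngII shares were 8.74% of macrophages, 2.44% of B cells and 2.54% of neutrophils. At steady state the 98 EYFP-positive macrophages (at least 1 EYFP UMI) held all 173 Cxcl1 UMIs, at 120.0 CPM, in 17 cells. The 39 EYFP-negative macrophages held 0, which allows up to 7.26 CPM, so Cxcl1 was at least 16.5-fold higher in positive cells. Cxcl2 was at 1345 CPM in positive and 576 CPM in negative macrophages (ratio 2.33, 2.04 to 2.68). Both of the 2 members with at least 100 UMIs were at least 2-fold higher in positive cells, against 2.65% of 2982 genes, and 0 were 2-fold lower, against 1.11%. Cxcl3 had 2 UMIs in positive and 0 in negative cells. Of the 238 Cxcl2 UMIs in negative macrophages 105 were in 1 Arg1/Spp1 barcode, and without barcodes passing a second gate the Cxcl2 ratio was 5.14. Positive cells were deeper, with a median of 11322.5 UMIs against 8262. With EYFP called at full depth and the cells then thinned to 1000 UMIs, positive macrophages held 12 Cxcl1 and 130 Cxcl2 UMIs in 98 cells, and negative macrophages 0 and 16 in 37 cells (Cxcl2 ratio 3.07). With EYFP called after the thinning, the Cxcl2 ratio was 1.30, and the Cxcl1 ratio was 3.30 at 1000 UMIs and 0.544 at 2000 UMIs.

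By the number of EYFP UMIs, steady state Cxcl1 stood at 0 CPM with none, 27.6 CPM with 1, 97.7 CPM with 2 and 148 CPM with 3 or more, in 39, 24, 18 and 56 cells. The median depth was 8262, 7882, 10526.5 and 14922 UMIs in the same groups, and its part was not tested. The level with 1 EYFP UMI was 8.34 CPM without the cell that held 5 of its 7 Cxcl1 UMIs. Cxcl2 followed no such order, at 576, 1489.75, 662 and 1433 CPM, and 112 of the 378 UMIs of the group with 1 EYFP UMI were in 1 cell. Within subclasses, only macrophages of no subclass had at least 10 cells on both sides. There the 33 positive cells had 343 CPM of Cxcl1 and 2596 CPM of Cxcl2, and the 22 negative cells had 0 and 219.5 CPM (Cxcl2 ratio 11.8, 8.66 to 16.6). This ratio was 61.3 without barcodes passing a second gate and 1.24 with EYFP called after thinning to 1000 UMIs. In the resident gate, with 48 and 9 cells, Cxcl2 was at 550.0 and 112 CPM, and in the Ear2/Retnla gate, with 15 and 7 cells, at 867 and 550.0 CPM.

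After AngII the 3 members went different ways with the reporter. Cxcl1 was at 68.1 CPM in 322 positive and 23.6 CPM in 1984 negative macrophages (ratio 2.89, 2.32 to 3.61). Cxcl2 was at 1223 and 1247 CPM (0.981, 0.944 to 1.02). Cxcl3 was at 20.1 and 209 CPM (0.0965, 0.0741 to 0.124). Of the 3 members 1 was at least 2-fold higher, against 0.801% of 7615 genes, and 1 at least 2-fold lower, against 1.09%. The depths differed more than at steady state, with medians of 5316 and 964.5 UMIs. With EYFP called at full depth and cells then thinned to 1000 UMIs the Cxcl1 ratio was 2.52 and the Cxcl2 ratio 0.766. With EYFP called after thinning to 2000 UMIs the Cxcl1 ratio was 0.739. It was 1.74 over all deposited barcodes and 1.65 as the mean of the CPM of single cells. The Cxcl3 ratio was 0.185 without barcodes passing a second gate. The part of depth in these ratios was not tested.

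Within subclasses the Cxcl1 ratio depended on the depth at which EYFP was called. Of the 211 Arg1/Spp1 macrophages, the class with most Cxcl3, 8 were EYFP-positive (3.79%, near the 2.96% of B cells), and Cxcl3 was at 249.5 CPM in these and 929.8 CPM in the 203 negative ones (0.268, 0.193 to 0.364), with 36 of the 43 UMIs of the positive cells in 1 cell. Cxcl1 had 0 UMIs in these 8 cells and 40 in the negative ones. Pooled over the 3 subclasses with at least 10 cells of both kinds (Mantel-Haenszel), which leaves the Arg1/Spp1 gate out, the Cxcl3 ratio was 0.894 (0.520 to 1.54), that of Cxcl1 3.45 (2.66 to 4.49) and that of Cxcl2 1.32 (1.26 to 1.39). With cells thinned to 2000 UMIs before EYFP was called, the Cxcl1 ratio lay on the other side of 1, at 0.742 (0.232 to 2.37), and at 1000 UMIs it was 2.55 (0.931 to 6.97). It was 1.58 over all deposited barcodes and 1.90 as the mean of the CPM of single cells. The Cxcl3 ratio rested on 23 and 44 UMIs. The Cxcl3 ratio was 0.3205 without the cell with the most Cxcl3 UMIs, 0.376 without barcodes passing a second gate, and 4.69 where macrophages were taken as cells with Adgre1 and Itgam. The Cxcl2 ratio lay below 1 as the mean of the CPM of single cells (0.990) and with EYFP called at full depth and the cells then thinned (0.994). At full depth Cxcl1 was higher in positive cells in each of these subclasses, at 86.3 against 17.7 CPM in resident macrophages (4.88, 2.62 to 10.1), 192 against 43.7 CPM in Ear2/Retnla macrophages (4.39, 2.91 to 6.72) and 31.1 against 15.0 CPM in those of no subclass (2.07, 1.34 to 3.19). Single cells weighed on these values: 42 of the 106 Cxcl1 UMIs in positive resident macrophages and 48 of the 70 in positive Ear2/Retnla macrophages were in 1 cell each. Without the highest cell of each group Cxcl1 was at 53.8 against 11.5 CPM, 67.0 against 24.8 CPM and 15.0 against 13.02 CPM in these 3 subclasses. Cxcl2 was higher in positive cells of the Ear2/Retnla gate (1683 against 820.2 CPM) and was 1102 CPM there without its highest cell. The immediate early sums of positive and negative macrophages were 21627 and 18390.5 CPM at steady state and 11938 and 11742 CPM after AngII. Of the 15 and 16 genes with at least 100 UMIs 0 differed 2-fold. Among all genes compared 2.65% were at least 2-fold higher and 1.11% lower at steady state, and 0.801% and 1.09% after AngII. With shares this low, the counts of 0 are not read as a result about the list.

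**Figure D4:**
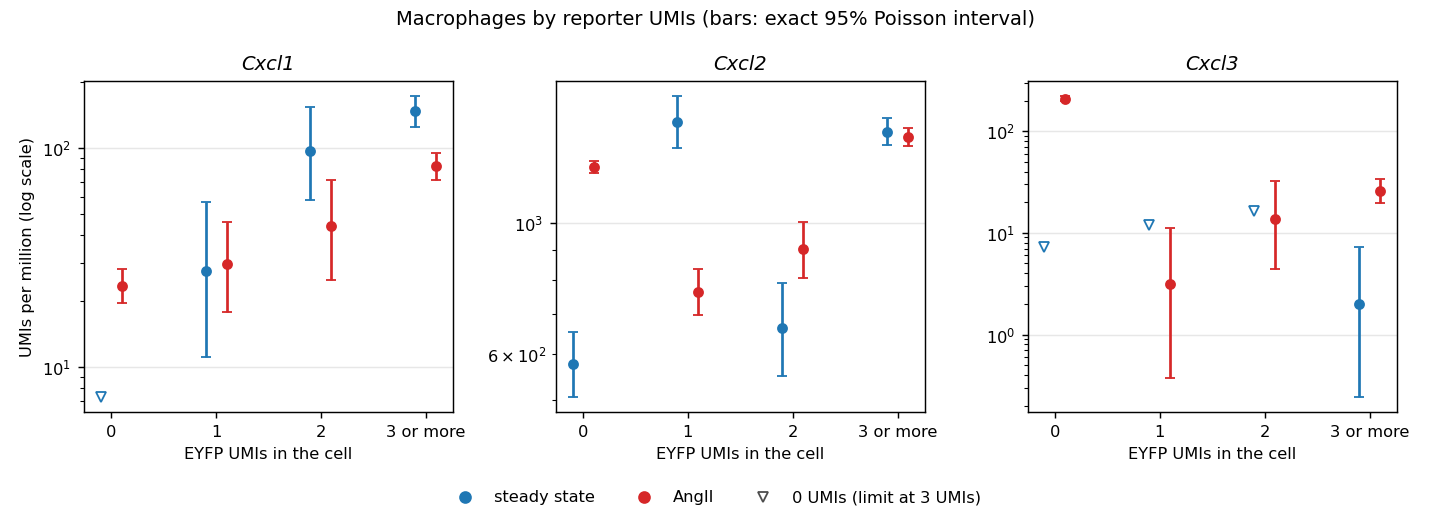
Level of each gene in CPM (y axis, log scale) in macrophages with 0, 1, 2 or at least 3 EYFP UMIs (x axis), at steady state (blue) and after AngII (red), with exact 95% Poisson intervals and open triangles at the limit of 3 UMIs where none was found. Cxcl1 goes from 23.6 to 82.9 over the AngII groups, while Cxcl3 after AngII is highest without the reporter (209).

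Cells with Cxcl1 or Cxcl3 mostly also had Cxcl2. After AngII 106 of 132 Cxcl1-positive cells (80.3%, 72.5 to 86.7) and 148 of 174 Cxcl3-positive cells (85.1%, 78.9 to 90.0) had a Cxcl2 UMI. Cells without Cxcl1 had Cxcl2 in 42.1%, at a median depth of 1069.5 UMIs against 4159.5 in Cxcl1-positive cells. Cells without Cxcl3 had it in 41.5%, at 1076 against 2056 UMIs. After AngII 10 of the 132 Cxcl1-positive cells (7.58%, 3.69 to 13.5) had a Cxcl3 UMI, against 164 of the 4066 cells without Cxcl1 (4.03%), at the same median depths of 4159.5 and 1069.5 UMIs. At steady state only 1 cell held Cxcl3, and it had no Cxcl1. In Arg1/Spp1 macrophages Cxcl2 was at 5529 CPM in the 56 cells with Cxcl3 and at 1047 CPM in the 155 without, with median depths of 2598 and 1766 UMIs. In neutrophils it was at 12713 CPM in the 55 cells with Cxcl3 and 4588 CPM in the 311 without. At steady state, 19 of 24 Cxcl1-positive cells (79.2%) had Cxcl2, at 3415 CPM against 457 CPM in the other cells.

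**Figure D5:**
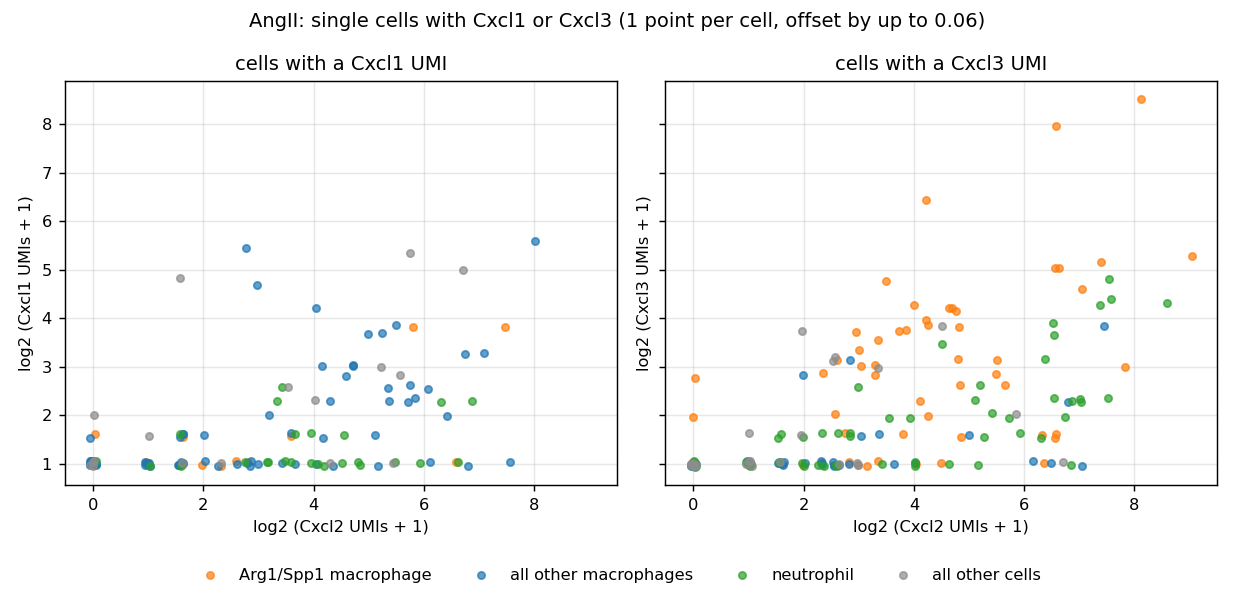
Each point is 1 AngII cell with a Cxcl1 UMI (left, 132 cells) or a Cxcl3 UMI (right, 174 cells), placed by log2 of its Cxcl2 UMIs plus 1 (x axis) and log2 of its Cxcl1 or Cxcl3 UMIs plus 1 (y axis), with a small random offset. Orange marks Arg1/Spp1 macrophages, blue all other macrophages, green neutrophils and grey all other cells. The highest Cxcl3 cells are orange, and the cells high in Cxcl1 are mostly blue or grey.

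Among the receptors, Cxcr2 followed the neutrophils. It was at 579 CPM in AngII neutrophils and 14.8 CPM in macrophages (39.3-fold higher), and at 0.539 CPM, 1 UMI, in steady state macrophages. Cxcr1, the other receptor of ELR chemokines, was at 1.81 CPM in neutrophils. Ackr1 and Ackr2, decoy receptors that take up chemokines, had 0 UMIs in the macrophages of both libraries and in AngII neutrophils.

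The other ELR chemokines of the locus were scarce. Cxcl15 had 0 UMIs in the macrophages of both libraries. Cxcl5 had 15 UMIs, at 10.8 CPM, in Arg1/Spp1 macrophages and 0 in all others (at least 27.1-fold higher), and Ppbp was at 59.3 CPM there and 12.7-fold higher than in other macrophages. Pf4, the platelet factor gene beside Cxcl3 that resident macrophages also express, was the most abundant neighbour. It was at 3123 CPM in steady state and 1335 CPM in AngII macrophages (ratio 0.427), and higher in EYFP-positive macrophages in both libraries (ratios 2.63 and 1.90).

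Of the 7 inducers, 3 had at least 100 UMIs in the macrophages of both libraries together, and 2 of these were at least 2-fold higher after AngII, against 6.0% of all genes compared, Il1b (169 and 1144 CPM) and Il1a (1.62 and 37.8 CPM). The third, Tnf, was lower, at 113 and 68.8 CPM (ratio 0.610, 0.521 to 0.718), and Il6, with fewer UMIs, was at 14.6 and 5.18 CPM (ratio 0.356, 0.217 to 0.595). Il1a, an alarmin of the interleukin-1 family, was 48.1-fold higher in Arg1/Spp1 than in other macrophages, at 218 CPM, and Il1b 3.12-fold higher, at 2682 CPM. Il1b was higher still in neutrophils, at 7839 CPM, and so was Tnf, at 265 CPM. Both interleukin-1 genes were lower in EYFP-positive macrophages after AngII, as Cxcl3 was, with ratios of 0.114 for Il1a and 0.468 for Il1b. At steady state Il1b was lower too (ratio 0.278). Csf2, Csf3 and Il17a had under 10 UMIs each in macrophages.

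Of the 11 NF-κB and feedback genes, 4 were at least 2-fold higher in AngII macrophages than at steady state, against 6.0% of all genes compared, and 1 at least 2-fold lower, against 4.67%, with a median log2 ratio of 0.29 against 0.01 over all genes compared. Those that were higher were Ptgs2, the inducible cyclooxygenase (7.37-fold), Bcl3 (2.89-fold), Myd88 (2.51-fold) and Tlr2 (2.11-fold). Nfkbiz, a co-activator of late NF-κB targets, was lower (ratio 0.397), and the sum over the list went from 3642 to 2835 CPM. In neutrophils 4 of the 11 were at least 2-fold higher than in macrophages, against 6.08% of all genes compared, and 0 were lower, against 8.92%. The 4 were Ptgs2 (1061 CPM), Nfkbia (1853 CPM), Tnfaip3 (171 CPM) and Zfp36 (2994 CPM). In Arg1/Spp1 macrophages 2 were at least 2-fold higher than in the other macrophages, Tlr2 and Ptgs2, against 2.80% of all genes compared, and Icam1 was lower (ratio 0.441), against 3.94%. In the reporter comparisons 0 of the list's genes with at least 100 UMIs differed 2-fold, 7 at steady state and 11 after AngII. The shares over all genes compared were also low, at 2.65% higher and 1.11% lower at steady state and 0.801% and 1.09% after AngII.

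The genes whose levels followed each member most closely were read from 20 gated classes with at least 20 cells, 5 from the steady state and 15 from the AngII library, over 8449 genes on log2 (CPM + 10). Classes of 1 library share its depth and free RNA, so the correlations are a description. Cxcl2 was most like Cd14, the lipopolysaccharide co-receptor (Pearson r = 0.89), Cebpb (0.87), Klf7 (0.85), Itgam (0.84) and Nr4a1 (0.82), which is among the immediate early genes. Cxcl3 was most like Inhba (0.93), Cxcl14 (0.91), Il1a (0.90), Spp1 (0.82) and Vegfa (0.80), and Inhba and Spp1 are themselves markers of the Arg1/Spp1 gate. Cxcl1 had looser companions, Irs2 (0.74), Agpat2 (0.71), Fmn1 (0.70), Pramef8 (0.70) and Arcn1 (0.69). The Cxcl1 levels of AngII type-2 innate lymphoid cells, type-2 dendritic cells and B cells rested mostly on 1 barcode each. The r values of Cxcl1, also those with the other members, include these barcodes. Among the members r was 0.64 for Cxcl1 with Cxcl2, 0.51 for Cxcl2 with Cxcl3 and 0.12 for Cxcl1 with Cxcl3.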

How the data were processed

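Per the labels, 2 droplet libraries of CD45-positive aortic adventitial cells were made, 1 of 3 pooled untreated animals and 1 of 2 pooled animals given AngII. The authors deposited raw UMI counts per gene and barcode, made with Cell Ranger 3.1.0 and bcl2fastq on GRCm38.p6 with the EYFP sequence added. No normalization had been applied to the deposited counts.

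From these counts, the filter kept barcodes that had 300 to 6500 genes and no more than 5% of UMIs from mitochondrial genes. Each cell took the name of the marker list with the largest excess, 2 times the difference of the square roots of its UMIs and of those at the library's mean share, from at least 2 markers and an excess of at least 2. Cells left over with at least 3 macrophage markers were macrophages. Macrophages took a subclass by the same rule, with the mean share taken over the macrophages of that library. Members, lists and markers were chosen with earlier results of these data known, and the scoring was settled after the data had been seen. No doublet caller was run. Genes were named by list membership, or as the 5 genes most correlated with a member. Counts of 2-fold differences used genes with at least 100 UMIs in the cells compared. For thinning, 1000 or 2000 UMIs were drawn per cell, and shallower cells were left out. A value of 0 was limited by 3 UMIs. With 1 library per condition no test was run and no p-value is given. The 11 alternatives changed the filter, depth, gate, reporter call or averaging. Scripts were tested on simulated data and used pandas 2.3.3, SciPy 1.17.1 and NumPy 2.4.6 in Python 3.11.15, with Matplotlib 3.10.9 for figures.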

Additional observations from a re-analysis of the deposited data

Results flagged for a closer look

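The barcodes that the cell filter removed, 40 at steady state and 221 after AngII, also held the chemokines, above the limit that a count of 0 allows there (8.29 and 1.21 CPM). At steady state Cxcl1 was at 11.1 CPM and Cxcl2 at 332 CPM in them. After AngII Cxcl1 was at 74.0 CPM, Cxcl2 at 1219.99 CPM and Cxcl3 at 135 CPM, and 281 of their 335 Cxcl3 UMIs were in 1 barcode.

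The ratio of AngII to steady state lay on opposite sides of 1 in different macrophage subclasses. For Cxcl1 it was 1.83 in resident macrophages, 6.99 in Ear2/Retnla macrophages and 0.0863 in macrophages of no subclass. For Cxcl2 it was 1.91, 1.39 and 0.522 in the same order, although the thinned share of cells with Cxcl2 was higher after AngII in each of them. That share was also higher after AngII in B cells, at 15.9% against 0% at steady state. The ratio of EYFP-positive to EYFP-negative macrophages for Cxcl2 was 2.33 at steady state and 0.981 after AngII. None of these differences between groups was tested, since each condition had 1 library.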

How the results depend on the processing

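Depth and single cells limit these values: AngII macrophages had a median of 1052.5 UMIs, and 1 cell can move a ratio. Over 16 results and 11 alternatives, 67 values counted as unmoved, within the counting interval of the main value, 76 counted as moved further and 7 changed direction. Limits were compared as if they were values, so some of the 76 are limits that the main value meets. An example is the macrophage AngII to steady state Cxcl3 ratio, at least 5.59 when thinned to 1000 UMIs against a main ratio of 129. The steady state EYFP ratio of Cxcl1 is a limit without an interval, and a fold difference was used for it instead. A change of direction was not counted where the main interval held 1. Crossings of 1 by the AngII EYFP ratio of Cxcl2 and the AngII within-subclass ratio of Cxcl3 are therefore not among the 7. The causes were not tested. No paired analysis was possible because each condition had 1 library.

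Over all deposited barcodes the Cxcl2 ratio of neutrophils to macrophages was 4.602, macrophage AngII to steady state ratios were 0.602 (Cxcl1) and 1.19 (Cxcl2), and EYFP ratios were 47.1 (steady state Cxcl1), 1.74 (AngII Cxcl1) and 0.0705 (AngII Cxcl3). Within subclasses they were 7.40 (steady state Cxcl2), and after AngII 1.58 (Cxcl1), 1.21 (Cxcl2) and 0.229 (Cxcl3). With at least 1000 genes 66.5% of AngII macrophages had Cxcl2.

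Thinned to 1000 UMIs, the neutrophil ratio was 6.34, the shares of macrophages with Cxcl2 25.2% and 46.2%, and the AngII to steady state ratios 0.267 (Cxcl1) and at least 5.59 (Cxcl3). The EYFP ratios were 3.30 and 1.30 at steady state (Cxcl1, Cxcl2), and 2.17, 0.916 and at most 0.206 after AngII (Cxcl1, Cxcl2, Cxcl3). Within subclasses they were 1.24 (steady state Cxcl2), 2.55 (AngII Cxcl1) and 1.18 (AngII Cxcl2). Thinned to 2000 UMIs, the same quantities were 7.49, 34.4% and 55.7%, then 0.992 for Cxcl2, reversed, and at least 9.19 for Cxcl3. The EYFP ratios were then 0.544, reversed, and 1.5 at steady state, and 0.739, reversed, for Cxcl1 and at most 0.126 for Cxcl3 after AngII. Within subclasses they were 1.54 (steady state Cxcl2), 0.742 (AngII Cxcl1, reversed) and 1.16 (AngII Cxcl2).

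Without the cell with the most UMIs, the neutrophil ratio was 5.18, the Arg1/Spp1 Cxcl3 ratio 66.4 and the AngII to steady state Cxcl2 ratio 1.00445. The AngII EYFP ratios were 2.29, 1.06 and 0.139914 (Cxcl1, Cxcl2, Cxcl3), and 2.53, 1.22 and 0.3205 within subclasses. As the mean of single cells, the Arg1/Spp1 ratio was 52.9, the AngII EYFP ratios 1.65, 0.795 and 0.0697, and within subclasses 7.31 (steady state Cxcl2), 1.90 (Cxcl1), 0.990 (Cxcl2, reversed) and 0.412 (Cxcl3).

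With a stricter gate the values were 5.28 (neutrophil ratio), 70.6 (Arg1/Spp1), 0.922 (AngII to steady state Cxcl2, reversed), and 8.55 and 1.23 (Cxcl2 within subclasses, steady state and AngII). Without barcodes passing a second gate they were 7.06, 63.3, 0.279 (AngII to steady state Cxcl1), 5.14 (EYFP, steady state Cxcl2), 1.12 and 0.185 (EYFP, AngII Cxcl2 and Cxcl3), and within subclasses 61.3, 1.40 and 0.376 (steady state Cxcl2, AngII Cxcl2, AngII Cxcl3). With macrophages gated by Adgre1 and Itgam they were 1.21 (AngII to steady state Cxcl2), at least 31.3 and 4.67 (EYFP, steady state Cxcl1 and Cxcl2), 2.02, 1.03 and 0.153 (EYFP, AngII), and within subclasses 6.45 (steady state Cxcl2), 1.44 and 4.69 (AngII Cxcl2 and Cxcl3).

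With EYFP-positive cells from 2 UMIs, the AngII Cxcl2 ratios were 1.07 and, within subclasses, 1.43. With EYFP called at full depth and cells then thinned to 1000 UMIs, the ratios were at least 1.51 and 3.07 at steady state (Cxcl1, Cxcl2), 0.766 and at most 0.0704 after AngII (Cxcl2, Cxcl3), and 0.994 within subclasses (AngII Cxcl2, reversed). Thinning gave no within-subclass value for Cxcl3, and Cxcl1 within subclasses at steady state has no ratio because negative cells held 0.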
